A study of Mus musculus with 8 samples.

Results

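The 9 genes described here encode core enzymes of the tricarboxylic acid (TCA) cycle, *Cs*, *Idh3a*, *Idh3b*, *Idh3g*, *Ogdh*, *Dlst*, *Suclg1*, *Fh1* and *Mdh2*. They were chosen by gene symbol from the 54532 genes of the deposited table, and all 9 were among the 13560 genes with enough reads for a test. RNA-Seq libraries came from LSK cells, the lineage-negative, SCA-1+ and C-KIT+ bone marrow compartment that holds hematopoietic stem and progenitor cells. The cells were sorted by the surface protein EpCAM into a *Zeb1*-/- EpCAM+ and a *Zeb1*-/- EpCAM- fraction, with 4 libraries each. All mice were C57BL/6 *Zeb1* fl/fl;*Mx1-Cre*+ animals given pIpC, and RNA was taken 14 days after the final injection. *Mx1-Cre* is switched on by interferon and acts in stem cells, their progeny and other interferon-responsive tissues. Both fractions are labelled *Zeb1*-/- and came from mice given pIpC, so the comparison asks how EpCAM+ and EpCAM- cells of such marrow differ, and no library from a control mouse enters it. The labels give 4 mice per genotype and do not say whether libraries of the same number share a mouse. The paper's supplement states an age range for the mice in which *Zeb1* expression was measured by PCR. Whether that range holds for the mice of these libraries is not given in the sources used here.

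The TCA cycle runs in the mitochondrial matrix and oxidizes acetyl groups to carbon dioxide, passing electrons to NAD and to the respiratory chain. Citrate synthase (*Cs*) starts it by joining acetyl-CoA to oxaloacetate. The NAD-dependent isocitrate dehydrogenase (catalytic subunit *Idh3a*, other subunits *Idh3b* and *Idh3g*) and the 2-oxoglutarate dehydrogenase complex (*Ogdh* for the E1 subunit, *Dlst* for the E2 subunit) carry out its oxidative decarboxylations. Succinyl-CoA synthetase (alpha subunit *Suclg1*), fumarase (*Fh1*) and mitochondrial malate dehydrogenase (*Mdh2*) return the carbon skeleton to oxaloacetate. Hematopoietic stem cells are known for low mitochondrial respiration and a large reliance on glycolysis, and respiration rises as progenitors become committed.

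Promoter sequence from RefSeq (GRCm38.p6, 250 bases before to 50 bases after an annotated start) was given for 8 of the 9 genes, and *Idh3a* had no entry. 3 of the windows are shown over the 120 bases before the start, because the genes fell to different degrees and these windows hold no exon of the GENCODE M21 annotation. Capitals mark CCAAT or its reverse complement ATTGG in *Cs* and *Fh1*, and the ETS and GABP core CCGGAAG in *Idh3g*.
*Cs*, chr10:128337607-128337726, plus strand: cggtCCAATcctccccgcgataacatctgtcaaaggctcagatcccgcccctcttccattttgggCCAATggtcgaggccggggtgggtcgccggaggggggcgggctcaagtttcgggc
*Fh1*, chr1:175625636-175625755, minus strand: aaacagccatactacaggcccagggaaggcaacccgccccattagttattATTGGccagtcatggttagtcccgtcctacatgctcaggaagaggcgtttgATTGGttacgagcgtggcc
*Idh3g*, chrX:73786898-73787017, minus strand: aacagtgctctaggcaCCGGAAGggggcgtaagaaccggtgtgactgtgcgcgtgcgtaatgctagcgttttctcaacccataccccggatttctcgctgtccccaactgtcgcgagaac
The *Cs* window held CCAAT from 116 and from 55 bases before the start. The *Fh1* window held ATTGG from 70 and from 19 bases before it, and the *Idh3g* window held CCGGAAG from 104 bases before it. Searched on both strands of the whole 300-base windows, CCAAT matched in *Cs*, *Fh1*, *Idh3b* and *Ogdh*, against 37.4% of all 32851 windows and 37.9% of the windows of tested genes. CCGGAAG matched in *Dlst*, *Idh3b* and *Idh3g*, against 8.86% of all windows and 17.9% of the windows of tested genes. The E2-box CAGGTG, a motif that ZEB proteins bind, matched in *Mdh2* and *Ogdh*, against 20.2% of all windows and 17.8% of the windows of tested genes. The E-box CACGTG, the NRF1 core GCGCATGC and the ERR half-site AAGGTCA each matched in *Ogdh* alone, against 7.15%, 2.71% and 4.72% of all windows. Of the windows of tested genes, 10.1%, 5.19% and 3.24% held them. *Ogdh* was searched in 6 windows, 1 for each annotated start, and the other genes in 1 each. None of these motifs was found in all 8 genes, and a match describes letters in a window and not a bound site.

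Each library held 14114491 to 17073546 reads counted on genes, and 18286 to 18746 genes were detected in EpCAM- libraries against 19992 to 20310 in EpCAM+ libraries. *Epcam* had 1.25 to 8.99 CPM in EpCAM- and 161 to 234 CPM in EpCAM+ libraries, higher in the fraction sorted for it. CPM are read counts relative to library size, after scaling each library by edgeR's TMM factor. *Zeb1* had 9.49 to 14.0 CPM in EpCAM- and 14.8 to 23.7 CPM in EpCAM+ libraries, and a count over the whole gene does not separate deleted from remaining exons, so it does not check the deletion. *Kit* had 155 to 245 CPM in EpCAM- and 244 to 328 CPM in EpCAM+ libraries, and *Ly6a*, which encodes SCA-1, had 15.7 to 71.7 and 116 to 351 CPM. EpCAM+ replicate 1 stood apart, with 5.97% of its reads on immunoglobulin genes and *Jchain*, against 0.446% to 0.750% in the other EpCAM+ libraries and at most 0.0253% in EpCAM- libraries. Mitochondrial DNA gave 0.409% to 0.556% of the reads in EpCAM- and 0.413% to 0.529% in EpCAM+ libraries.

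Of the 9 TCA cycle enzymes, 7 were significantly lower in *Zeb1*-/- EpCAM+ than in *Zeb1*-/- EpCAM- LSK cells and none was higher (edgeR's quasi-likelihood test, two-sided, Benjamini-Hochberg adjusted p under 0.05 over all genes tested). *Cs*, *Idh3a*, *Dlst*, *Fh1* and *Mdh2* fell by 34.5% to 39.7%, and *Idh3g* and *Suclg1* by 17.4% and 19.7%. *Idh3b* and *Ogdh* had fold changes of -0.19 and -0.21 on the log2 scale and missed the threshold in this fit, which has no block for the replicate number. Both passed it with that block (edgeR adjusted p = 0.0413 and 0.0422). The median log2 fold change was -0.61 over the 9 enzymes, against 0.02 over all 13560 genes tested. At an unadjusted p under 0.05, 9 were lower and none was higher, and DESeq2 gave 9 lower and none higher. The 4 EpCAM+ values lay under all 4 EpCAM- values for 7 enzymes, the exceptions being *Idh3g* and *Ogdh*. Among all genes tested, 20.8% were called lower and 21.8% higher, and for 20.0% all EpCAM+ values lay under all EpCAM- values. The 2961 higher and 2818 lower genes became 3642 and 2083 with upper-quartile scaling and 3476 and 2066 with library totals. The numbers were 3005 and 3064 with DESeq2 and 3465 and 3353 with the replicate block. These enzymes are abundant, and among the 1865 genes with a mean of at least the 121 CPM of *Dlst*, the least abundant of the 9, 45.9% were called lower, 44.4% had all EpCAM+ values under all EpCAM- values, and the median log2 fold change was -0.21.

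Summed over the 9 enzymes, 2963, 3394, 3358 and 3650 CPM were measured in EpCAM- replicates 1 to 4 and 2257, 2502, 2285 and 2516 CPM in EpCAM+ replicates 1 to 4. The fractions did not overlap, and the mean was 28.5% lower in EpCAM+ cells (2390 ± 138 against 3341 ± 283 CPM, SD, n = 4 each). In sorted bulk RNA, fewer cells of a type and less of a messenger per cell cannot be told apart. With the replicate number as a block in the fit, all 9 enzymes were called lower, beside 3353 of all genes tested. With upper-quartile scaling or library totals, 5 and 6 enzymes were. Without EpCAM+ replicate 1, 6 were called, and with immunoglobulin genes and *Jchain* left out before scaling, an alternative added after the data were seen, 8 were.

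**Figure D1:**
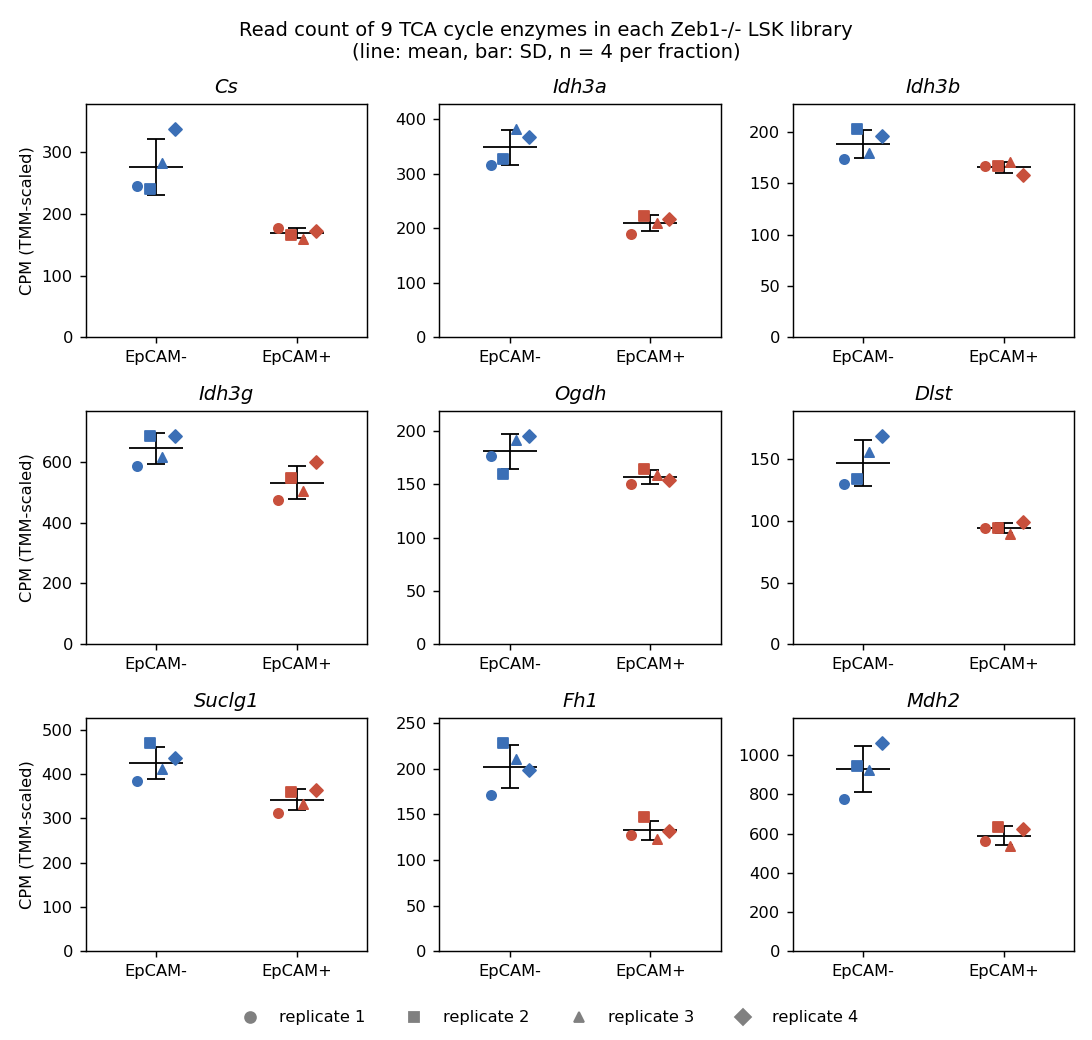
Read counts of the 9 enzymes in CPM (vertical axes, starting at 0) in the EpCAM- (blue) and EpCAM+ (red) libraries, 1 panel per gene. Symbols are single libraries by replicate number, horizontal lines are means and bars SD of 4 libraries. The red symbols lie under all blue symbols in 7 panels and overlap them for *Idh3g* and *Ogdh*.

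*Cs* (ENSMUSG00000005683, chromosome 10 of GRCm38, 128337734 to 128362479), whose product commits acetyl-CoA to the cycle, had 245, 240, 282 and 338 CPM in EpCAM- replicates 1 to 4 and 177, 166, 158 and 172 CPM in EpCAM+ replicates 1 to 4. The EpCAM- values spread more widely than the EpCAM+ values, and the fractions did not overlap. *Cs* fell by 0.72 on the log2 scale (standard error 0.11, edgeR adjusted p = 0.000800). Fits that each left out 1 library gave log2 fold changes of -0.79 to -0.61, and all 8 of them passed the threshold.

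Among the subunits of NAD-dependent isocitrate dehydrogenase, the catalytic one fell relative to the other 2. *Idh3a* (ENSMUSG00000032279, chromosome 9, 54586334 to 54604661), the catalytic subunit, had 316, 326, 383 and 368 CPM in EpCAM- replicates 1 to 4 and 190, 223, 210 and 217 CPM in EpCAM+ replicates 1 to 4. It fell by 0.73 on the log2 scale (standard error 0.086, edgeR adjusted p = 0.000264), the smallest adjusted p of the 9 enzymes, with no overlap. *Idh3b* (ENSMUSG00000027406, chromosome 2, 130279309 to 130284547) had 174, 203, 180 and 196 CPM in EpCAM- and 167, 167, 171 and 158 CPM in EpCAM+ replicates 1 to 4. All EpCAM+ values of *Idh3b* lay under the EpCAM- values by a narrow margin, and its log2 fold change of -0.19 (95% confidence interval -0.34 to -0.03) missed the threshold (edgeR adjusted p = 0.0554). The call turned on the fit, with an adjusted p of 0.0413 in edgeR with the replicate block, 0.0285 in DESeq2, 0.0497 in edgeR with DESeq2's size factors and 0.0286 in edgeR without EpCAM- replicate 1. Its exons share 5 of 3422 bases with *Nop56* on the opposite strand, and whether the counting used strand is not given in the sources used here. *Idh3g* (ENSMUSG00000002010, chromosome X, 73778963 to 73786897) had 587, 685, 616 and 685 CPM in EpCAM- and 475, 547, 505 and 598 CPM in EpCAM+ replicates 1 to 4. EpCAM+ replicate 4 lay above EpCAM- replicate 1, and the other 3 EpCAM+ values lay under all EpCAM- values. *Idh3g* fell by 0.28 on the log2 scale (standard error 0.093, edgeR adjusted p = 0.0348). The call was lost with upper-quartile scaling (adjusted p = 0.131), with library totals (0.0999) and when any 1 of EpCAM- replicates 2, 3 and 4 or EpCAM+ replicates 1, 2 and 3 was left out (0.0540 to 0.0927).

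The ratio of read counts of 2 genes within a library does not depend on how libraries are scaled, and 12 such ratios were compared. The ratio of *Idh3a* to *Idh3b* reads was 1.85 in EpCAM- and 1.27 in EpCAM+ libraries (geometric means), a log2 difference of -0.55 ± 0.10 (standard error, n = 4 each). The ratio of *Idh3a* to *Idh3g* reads differed by -0.45 ± 0.09 on the same scale. For both ratios the 4 EpCAM+ values lay under the 4 EpCAM- values, which gives the smallest two-sided p of an exact permutation test with 4 against 4 (0.0286, and 0.0429 after adjustment over the 12 ratios). The ratio of *Idh3b* to *Idh3g* differed by 0.10 ± 0.09 with overlapping fractions (exact permutation test, adjusted p = 0.343). *Idh2*, the mitochondrial NADP-dependent isocitrate dehydrogenase, had a log2 fold change of -0.23 (95% confidence interval -0.43 to -0.02, edgeR adjusted p = 0.0711, and 0.0223 with the replicate block), and the ratio of *Idh3a* to *Idh2* was lower in EpCAM+ libraries by 0.51 ± 0.13 on the log2 scale (exact permutation test, adjusted p = 0.0429).

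Within the 2-oxoglutarate dehydrogenase complex, the E2 subunit fell and the E1 subunit missed the threshold in the fit without the replicate block. *Dlst* (ENSMUSG00000004789, chromosome 12, 85110833 to 85134845) had 130, 134, 156 and 169 CPM in EpCAM- and 94.7, 94.3, 89.8 and 99.3 CPM in EpCAM+ replicates 1 to 4, without overlap. It fell by 0.64 on the log2 scale (standard error 0.091, edgeR adjusted p = 0.000627). *Ogdh* (ENSMUSG00000020456, chromosome 11, 6291633 to 6356642) had 177, 160, 192 and 195 CPM in EpCAM- and 150, 164, 159 and 153 CPM in EpCAM+ replicates 1 to 4. EpCAM- replicate 2 was within the EpCAM+ range, and the fractions overlapped. The log2 fold change of *Ogdh* was -0.21 (95% confidence interval -0.38 to -0.04, edgeR adjusted p = 0.0524). It passed the threshold with the replicate block (adjusted p = 0.0422), in DESeq2 (0.0316), with DESeq2's size factors (0.04996), without immunoglobulin genes (0.0473) and without EpCAM- replicate 2 (0.0131). *Dld*, the E3 subunit that this complex shares with pyruvate dehydrogenase, and *Mrps36*, which encodes a small adaptor of the complex, fell by 0.51 and 0.68 (edgeR adjusted p = 0.000490 and 0.000355). The ratio of *Ogdh* to *Dlst* reads rose from 1.23 in EpCAM- to 1.66 in EpCAM+ libraries, by 0.43 ± 0.07 on the log2 scale, and that of *Ogdh* to *Dld* rose by 0.30 ± 0.06 (exact permutation tests, adjusted p = 0.0429 for each). The ratio of *Dlst* to *Dld* differed by -0.13 ± 0.07 with overlapping fractions (exact permutation test, adjusted p = 0.171), and it was lower in EpCAM+ cells in all 4 pairs of same-numbered libraries.

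*Suclg1* (ENSMUSG00000052738, chromosome 6, 73248382 to 73276911), the alpha subunit shared by the ATP-forming and GTP-forming succinyl-CoA synthetases, had 384, 470, 412 and 435 CPM in EpCAM- and 312, 358, 332 and 364 CPM in EpCAM+ replicates 1 to 4. The fractions did not overlap, and *Suclg1* fell by 0.32 on the log2 scale (standard error 0.084, edgeR adjusted p = 0.0130), a call that upper-quartile scaling ended (-0.23, adjusted p = 0.0557). Its partner *Sucla2*, the ATP-specific beta subunit, fell by 0.37 (edgeR adjusted p = 0.00581). *Suclg2*, the GTP-specific beta subunit, had -0.14 (95% confidence interval -0.33 to 0.05, edgeR adjusted p = 0.199). The ratio of *Sucla2* to *Suclg2* reads was lower in all EpCAM+ than in all EpCAM- libraries, by 0.23 ± 0.07 on the log2 scale (exact permutation test, adjusted p = 0.0429). The ratios of *Suclg1* to *Sucla2* and to *Suclg2* differed by 0.05 ± 0.08 and -0.18 ± 0.09 (exact permutation tests, adjusted p = 0.543 and 0.0762). Of the 4 succinate dehydrogenase subunits, which hand electrons to the respiratory chain, *Sdhb*, *Sdhc* and *Sdhd* fell by 0.46, 0.32 and 0.56, and upper-quartile scaling ended the call for *Sdhc* (-0.23, adjusted p = 0.0581). *Sdha* had -0.20 (edgeR adjusted p = 0.0671, and 0.0199 with the replicate block).

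*Fh1* (ENSMUSG00000026526, chromosome 1, 175600374 to 175625635), which hydrates fumarate to malate, had 172, 228, 211 and 199 CPM in EpCAM- and 128, 148, 124 and 131 CPM in EpCAM+ replicates 1 to 4. It fell by 0.61 on the log2 scale without overlap (standard error 0.096, edgeR adjusted p = 0.000971). *Mdh2* (ENSMUSG00000019179, chromosome 5, 135778480 to 135790398), which oxidizes malate to oxaloacetate, had 779, 947, 926 and 1064 CPM in EpCAM- and 563, 634, 536 and 624 CPM in EpCAM+ replicates 1 to 4. It fell by 0.66 without overlap (standard error 0.11, edgeR adjusted p = 0.00105). EpCAM- replicate 1 was the lowest EpCAM- value for both genes. *Cs*, *Idh3a*, *Dlst*, *Suclg1*, *Fh1* and *Mdh2* passed the threshold in all 8 fits that left out 1 library.

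**Figure D2:**
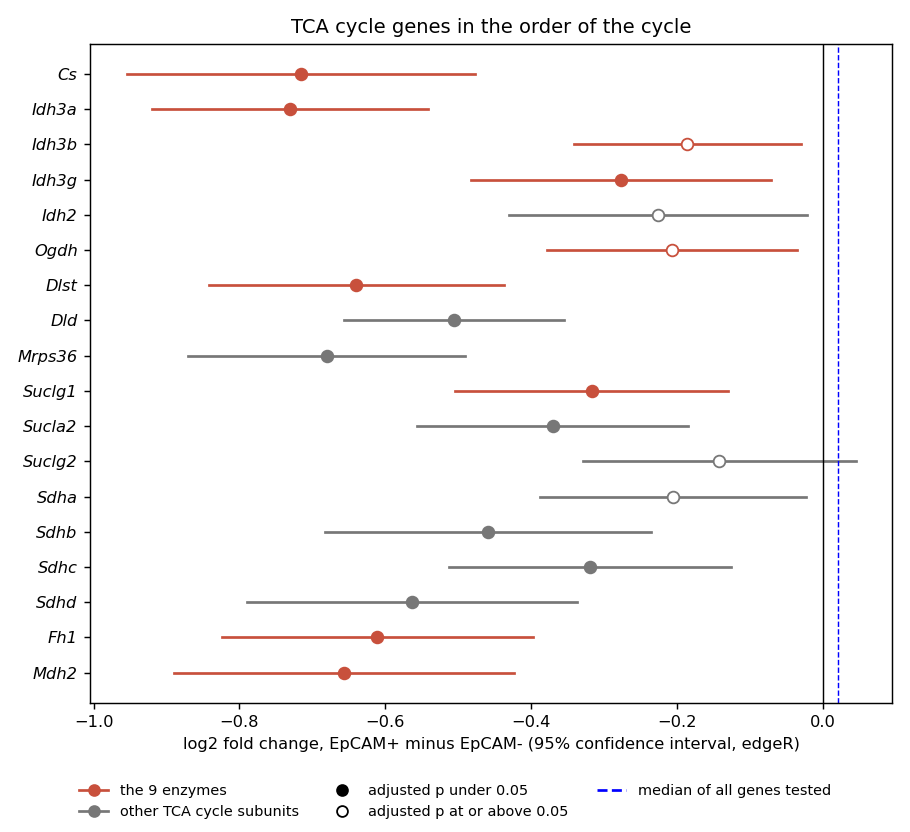
Log2 fold changes of the 9 enzymes (red) and of 9 other TCA cycle subunits (grey) between EpCAM+ and EpCAM- libraries, in the order of the cycle, with 95% confidence intervals from edgeR. Filled symbols passed the adjusted p threshold of 0.05 and the dashed line marks the median of all genes tested at 0.02. All 18 points lie below 0, from -0.73 for *Idh3a* to -0.14 for *Suclg2*.

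For the isocitrate and malate dehydrogenases, the balance of mitochondrial to cytosolic forms differed between the fractions. *Mdh1*, cytosolic malate dehydrogenase, had 772 ± 98.5 CPM in EpCAM- and 855 ± 27.7 CPM in EpCAM+ libraries (SD, n = 4), with overlapping fractions and a log2 fold change of 0.15 (95% confidence interval -0.07 to 0.36, edgeR adjusted p = 0.236). The ratio of *Mdh2* to *Mdh1* reads went from 1.20 to 0.688, a log2 difference of -0.81 ± 0.16 (exact permutation test, adjusted p = 0.0429). *Idh1*, the cytosolic and peroxisomal NADP-dependent isocitrate dehydrogenase, fell from 98.3 ± 14.5 CPM to 44.2 ± 4.17 CPM (SD, n = 4), a log2 fold change of -1.16 (edgeR adjusted p = 0.000175). The ratio of *Idh2* to *Idh1* reads rose from 7.06 to 13.4, by 0.93 ± 0.15 on the log2 scale (exact permutation test, adjusted p = 0.0429). In all, 8 of the 12 ratios differed after adjustment, each at the smallest p of the exact permutation test (0.0286). Some of the 8 share a gene, and the adjusted p of each depends on how many ratios reached that value. The test did not use the replicate pairs, and an exact sign-flip test over 4 pairs allows no p under 0.125.

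**Figure D3:**
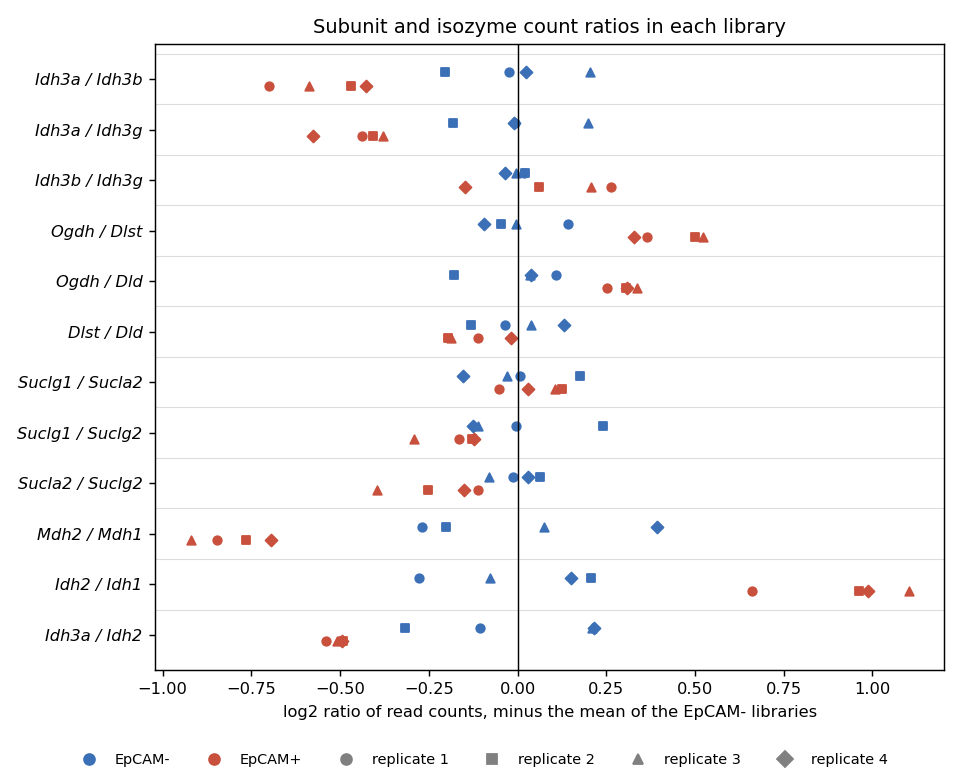
Log2 ratio of the read counts of 2 genes in each library (horizontal axis), with the mean of the EpCAM- libraries set to 0, for the 12 pairs on the vertical axis. Blue symbols are EpCAM- and red symbols EpCAM+ libraries, with 1 symbol shape per replicate number. The red symbols lie apart from the blue ones for 8 pairs, with *Ogdh* to *Dlst*, *Ogdh* to *Dld* and *Idh2* to *Idh1* shifted to the right and the other 5 to the left.

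Levels of different genes were compared as CPM per kilobase of the gene length in the deposited table. In EpCAM- libraries *Mdh2* (261 ± 32.8 CPM per kilobase, SD, n = 4) and *Idh3g* (238 ± 18.3) were highest, with overlapping ranges. *Suclg1* followed with 92.2 ± 7.93 and *Idh3a* with 68.7 ± 6.34 CPM per kilobase, and their ranges were separate from each other and from that of *Idh3g*. *Fh1* (59.7 ± 7.04), *Idh3b* (55.0 ± 4.00) and *Cs* (47.8 ± 7.83) had ranges that overlapped with each other, and that of *Fh1* overlapped with that of *Idh3a*. *Ogdh* (33.2 ± 2.97) and *Dlst* (15.4 ± 1.94) were lowest, each with a range of its own. In EpCAM+ libraries *Idh3g* had the highest mean, 197 ± 19.7 CPM per kilobase against 165 ± 13.4 for *Mdh2*, again with overlapping ranges. *Idh3b*, at 48.4 ± 1.60, then stood above *Idh3a* at 41.4 ± 2.84 and *Fh1* at 39.1 ± 3.08 CPM per kilobase. The order rests on the gene lengths used, since the deposited FPKM placed *Mdh2* first in both fractions and *Dlst* above *Cs* and *Ogdh*.

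**Figure D4:**
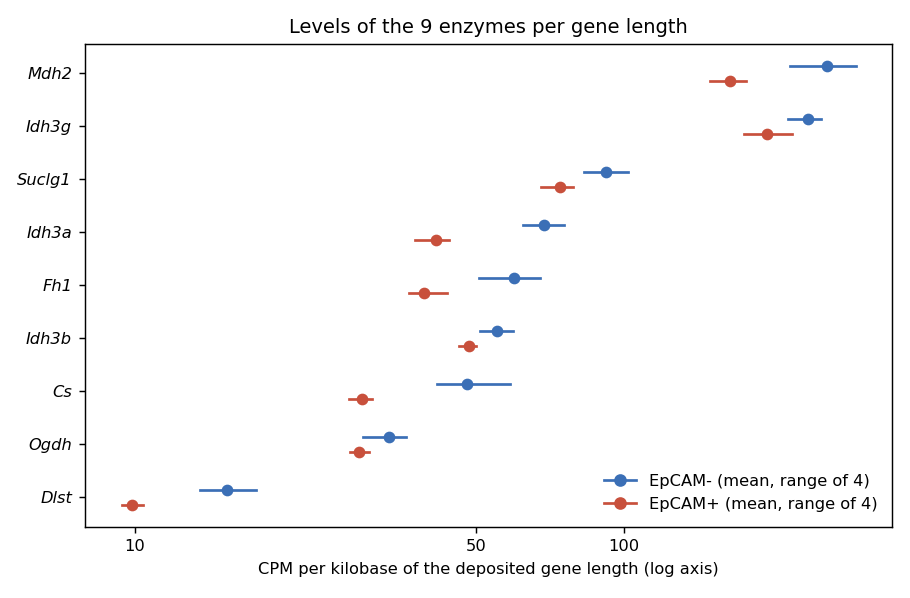
Levels of the 9 enzymes in CPM per kilobase of the deposited gene length (horizontal log axis), with points for means and lines for the range of 4 libraries. EpCAM- (blue) values run from 15.4 for *Dlst* to 261 for *Mdh2* and EpCAM+ (red) values from 9.89 for *Dlst* to 197 for *Idh3g*.

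Genes around the cycle were described with lists, whose counts stand beside 20.8% of all genes tested called lower and 45.9% of the genes at least as abundant as *Dlst*. Of 9 other TCA cycle subunits, 6 were lower and none higher, and the median log2 fold change was -0.37 (no gene was higher at an unadjusted p under 0.05 or by DESeq2, which called 8 lower). For pyruvate dehydrogenase and its regulators, 6 of 13 tested genes were lower, all of them subunits of the complex or of pyruvate import, with *Dlat* at -0.66, *Dld* at -0.51 and *Pdhx* at -0.52. *Dld* is also counted among the other TCA cycle subunits. For pyruvate import, *Mpc1* was lower at -0.51 and *Mpc2* was not called (0.20, edgeR adjusted p = 0.162). The kinase *Pdk2*, which inhibits the complex, rose by 0.30 (edgeR adjusted p = 0.0224), a call that was lost without EpCAM- replicate 3 or any 1 of EpCAM+ replicates 2, 3 and 4 (0.0544 to 0.0581) and with no filter on low counts (0.0685). With the replicate block, 2 genes of this list were higher. Of 9 tested genes for the lipoylation of these dehydrogenases, which includes the iron-sulfur cluster supply of lipoyl synthase, 5 were lower and none higher, with *Lias*, the lipoyl synthase, at -0.57, *Isca1* at -0.57 and *Iba57* at -0.998, and with no gene higher at an unadjusted p under 0.05 or by DESeq2.

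Of 11 tested anaplerotic and glutamine enzymes, which carry carbon into the cycle or out of it, 5 were lower, among them *Me2*, mitochondrial malic enzyme, at -0.66, *Got2*, mitochondrial aspartate aminotransferase, at -0.46 and *Gls2*, a glutaminase, at -2.71, which fell from 4.56 to 0.696 CPM. None of these 11 was higher, also at an unadjusted p under 0.05 and by DESeq2. Of 7 tested carriers of cycle intermediates, 4 were lower. *Slc25a21*, the mitochondrial 2-oxoadipate carrier, had 22.3, 28.8, 53.5 and 58.4 CPM in EpCAM- and 1.70, 0.170, 0.727 and 1.49 CPM in EpCAM+ replicates 1 to 4. Its log2 fold change of -5.35 (edgeR adjusted p = 0.000142) was the lowest among the genes of these pathway lists. *Slc25a12* and *Slc25a10*, carriers of aspartate with glutamate and of dicarboxylates, had -0.39 and -0.48. No carrier was higher by edgeR, with 1 at an unadjusted p under 0.05, 1 with the replicate block, upper-quartile scaling, library totals or at least 10 counts in every library, and 1 by DESeq2, *Slc25a11* (log2 fold change 0.18, edgeR adjusted p = 0.0535), which was named after its values were seen. Among 6 cytosolic enzymes, 4 were lower, with *Acly*, ATP citrate lyase, at -0.33 and *Aco1* at -0.50 beside *Idh1*, and none was higher by edgeR or DESeq2, with 1 at an unadjusted p under 0.05 and 1 with the replicate block. The lactate dehydrogenase genes went opposite ways, with *Ldhb* rising by 1.81 (39.3 ± 8.80 to 138 ± 15.7 CPM, SD, n = 4, edgeR adjusted p = 0.000125) and *Ldha* falling by 0.56 (edgeR adjusted p = 0.00654). The paralogs *Csl* and *Ogdhl* were too low for a test, with mean values of 0.0369 to 0.112 CPM in the fractions.

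Among 77 tested nuclear genes for the respiratory chain, 32 were lower and none higher, the median was -0.27, and with the replicate block 50 were lower. Those 32 genes are 41.6% of the list, near the 45.9% called lower among the abundant genes, whose median was -0.21. *Cyc1*, cytochrome c1, fell by 0.69, *Cycs*, cytochrome c, by 0.62 and *Atp5g1*, a subunit of the ATP synthase ring, by 0.89. No gene of this list was higher at an unadjusted p under 0.05 or by DESeq2. Among 11 tested messenger RNAs encoded by mitochondrial DNA none was lower by edgeR, with 1 lower at an unadjusted p under 0.05, 1 with the replicate block and 1 by DESeq2, and the median was -0.11. *mt-Co1* rose by 0.35 (edgeR adjusted p = 0.0382), a call that was lost in 6 of the 8 fits that left out 1 library and with no filter on low counts (0.0564). Among 14 regulators of mitochondrial and growth genes, 4 were lower and 3 higher. *Ppargc1a*, a coactivator of mitochondrial genes, rose from 0.540 to 2.69 CPM (log2 fold change 2.29, edgeR adjusted p = 0.00145), *Mycn* from 18.6 to 49.5 CPM (1.41, adjusted p = 0.00282) and *Gabpb1* by 0.33. The 4 lower regulators, named after their values were seen, were *Myc* (-0.40), *Max* (-0.38), *Gabpa* (-0.31) and *Atf4* (-0.32), with edgeR adjusted p-values of 0.0170 to 0.0397, and none of the 14 was called lower with upper-quartile scaling or library totals.

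**Figure D5:**
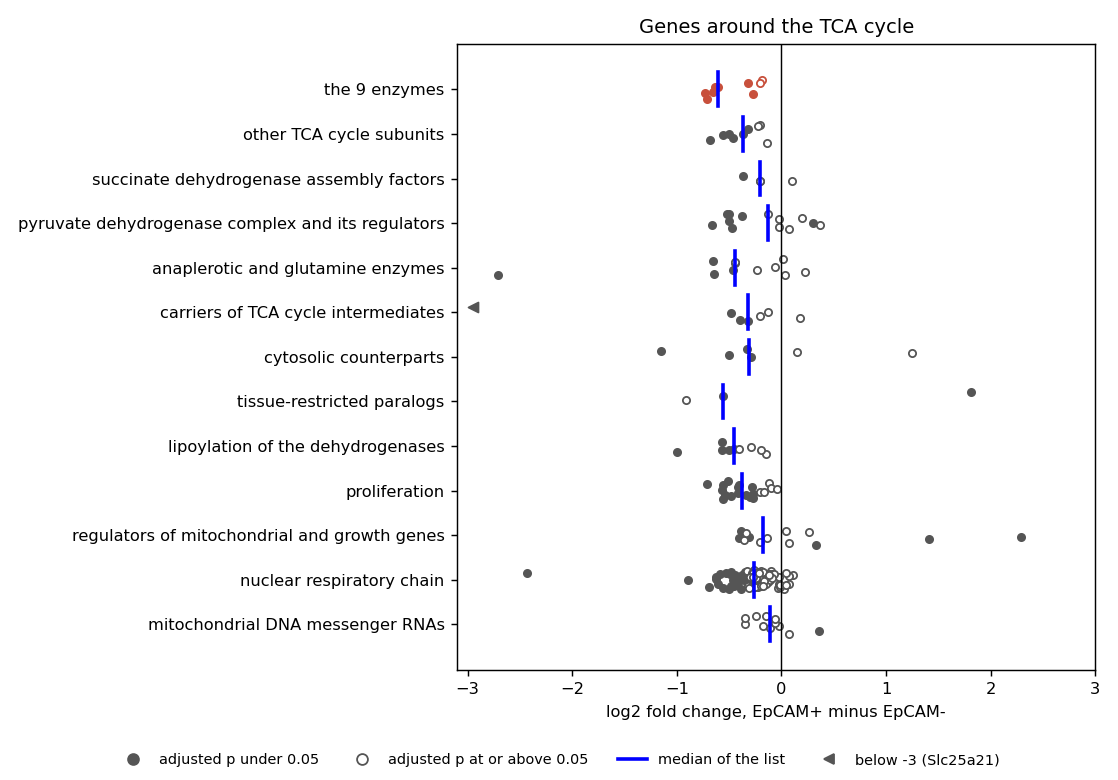
Log2 fold change between EpCAM+ and EpCAM- libraries (horizontal axis) of each tested gene in 13 lists, with the 9 enzymes in red at the top. Filled points passed the adjusted p threshold of 0.05, blue bars are medians, and the arrowhead stands for *Slc25a21* at -5.35. The median of the 9 enzymes is -0.61 and the medians of the other lists run from -0.56 to -0.11. The -0.56 is the value of *Ldha* in the list labelled tissue-restricted paralogs, which had 3 tested genes.

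Proliferation genes and markers of several other cell types also differed between the fractions, in either direction. The counts below stand beside 20.8% of all genes tested called lower and 21.8% called higher. Among the genes at least as abundant as *Dlst*, 45.9% were called lower. Of 20 proliferation genes, 15 were lower and none higher in EpCAM+ libraries, and the median was -0.38 on the log2 scale (no gene was higher at an unadjusted p under 0.05 or by DESeq2). *Rrm2* fell by 0.71, *Ccna2* by 0.57 and *Mcm5* by 0.42. With library totals as the scaling, 9 were lower. Of 12 stem and progenitor markers, 9 were higher and none lower, and their summed level was 1679 to 2475 CPM in EpCAM- and 3063 to 3345 CPM in EpCAM+ libraries. Of 7 erythroid markers, 6 were lower, with sums of 2024 to 6887 against 89.8 to 271 CPM, of 8 neutrophil markers 3 were lower, with 10706 to 17117 against 1039 to 1604 CPM, and of 6 mast cell and basophil markers 4 were lower, with 281 to 554 against 71.9 to 97.0 CPM. The 3 lower neutrophil markers, *Mpo*, *Elane* and *Prtn3*, are granule genes that myeloid progenitors also express, and *Mpo* alone had 8739 to 12205 CPM in EpCAM- and 566 to 1175 CPM in EpCAM+ libraries. The later neutrophil genes *S100a8*, *S100a9*, *Ltf*, *Camp* and *Ngp* were not called (edgeR adjusted p = 0.247 to 0.816). Of 8 plasma cell markers, 5 were tested and 3 were higher, with sums of 171 to 259 against 389 to 3978 CPM. Of 9 dendritic cell markers, 7 were tested and 4 were higher, with 228 to 313 against 170 to 803 CPM. Of 7 T cell markers, 2 were tested and both were higher, with 17.4 to 29.5 against 54.0 to 66.9 CPM, and *Cd3e* was at 0 in every EpCAM- library. Of 8 B cell markers, 4 were tested and 2 were higher, with 48.6 to 82.5 against 75.8 to 125 CPM, and *Pax5* was at 0 in all 8 libraries. Of 7 monocyte and macrophage markers, 1 of 6 tested was higher and 2 were lower, with 508 to 1273 against 640 to 954 CPM. Of 6 megakaryocyte markers, 1 of 5 tested was higher, with 83.5 to 286 against 128 to 367 CPM. Of 5 natural killer cell markers, 1 was tested and not called, with 685 to 884 against 632 to 794 CPM, and *Ncr1* was at 0 in every EpCAM- library. Single genes carried several of these sums, which are therefore not amounts of a cell type. *Nkg7* had 684 to 883 CPM in EpCAM- and 631 to 794 CPM in EpCAM+ libraries, *Lck* 16.3 to 27.5 and 50.3 to 62.7, and *Cd79b* 44.2 to 76.2 and 64.0 to 72.9. In EpCAM- libraries *Xbp1* had 167 to 249 CPM and *Car1* 1599 to 5956 CPM. The plasma cell marker *Jchain* had 199 to 3525 CPM in EpCAM+ and at most 0.273 CPM in EpCAM- libraries. The gate of the sort excluded lineage-positive cells, including mature myeloid and erythroid ones, and how many remained was not measured. The part of proliferation and of these cell types in the enzyme differences was not tested.

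Across the 8 libraries, the mean profile of the 9 enzymes was highest in EpCAM- replicate 4 and lowest in EpCAM+ replicate 1 (0.36 and -0.30 on the log2 CPM scale, centred for each gene). The genes outside the 9 whose log2 CPM followed this profile most closely were *Mrps15* (Pearson r = 0.998), *Cyc1* (0.998), *Stoml2* (0.997), *Htra2* (0.997) and *Ruvbl2* (0.997). These correlations are a description over 8 libraries that fall into 2 fractions, and 788 of the 13551 other tested genes had r above 0.95. The EpCAM- library with the highest value was replicate 4 for *Cs*, *Idh3g*, *Ogdh*, *Dlst* and *Mdh2*, replicate 2 for *Idh3b*, *Suclg1* and *Fh1*, and replicate 3 for *Idh3a*.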

How the data were processed

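RNA-Seq was done on 4 *Zeb1*-/- EpCAM+ and 4 *Zeb1*-/- EpCAM- LSK samples. The authors amplified RNA with SMART-Seq v4, sequenced 150-bp paired ends, aligned reads to GRCm38.p6 with STAR 2.6.1d and counted them with featureCounts 1.5.0-p3 (versions from the submitters' processing notes). The deposited table holds unnormalized read counts per gene, which all tests used, and the authors' FPKM, used as an alternative for levels. Annotation release, strand setting and treatment of multi-mapping reads are not given in the sources used here. A further 15 columns, the authors' DESeq2 1.20.0 comparisons (fold changes and p-values), were not used.

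Counts were filtered with filterByExpr, scaled by TMM and tested with edgeR 4.0.16 (glmQLFit and glmQLFTest, two-sided, Benjamini-Hochberg, threshold 0.05) in R 4.3.3 over 13560 genes. Standard errors came from the F statistic and log2 CPM used a prior count of 2. Count ratios were tested by exact permutation (two-sided) (scipy 1.17.1), whose smallest p with 4 against 4 libraries is 0.0286. Python 3.11.15 and matplotlib 3.10.9 were used for figures. The procedure was tested on simulated counts with 2-fold changes in a small share of genes and no replicate pairing, unlike these data. That test does not show how the calls made here hold. Alternatives were DESeq2 1.42.0, limma-trend (limma 3.58.1), other scalings and filters, leave-one-out fits, a block for the replicate number and, added after seeing the data, immunoglobulin genes left out.

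Replicate numbers pair the samples, since the deviations of log2 CPM from the fraction mean correlated between same-numbered libraries (r across genes of 0.205 to 0.356 in 4 pairs) and not between the 12 pairs of different numbers (-0.216 to 0.0396). What the numbers share is not given in the sources used here. Genes are not independent replicates. No 2 libraries of a fraction were duplicates (chi-square per degree of freedom at least 9.80). Totals of 14114491 to 17073546 reads without molecular identifiers set the precision.

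The 9 genes and all gene lists were chosen with earlier results of these data known, and 1 gene of the lists is not reported here. Genes named by rule are the 9, those of the ratios, up to 3 called genes with the smallest adjusted p per list, called genes against their list's main direction, *Epcam*, *Zeb1*, marker genes, and the 5 genes most like the mean profile of the 9. Named outside this rule were *Sdha*, *Sdhb*, *Sdhc*, *Mpc1*, *Mpc2*, *Csl*, *Ogdhl*, *Slc25a11*, *Nop56* and the lower regulators.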

Additional observations from a re-analysis of the deposited data

Results flagged for a closer look

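*Sdhd*, which encodes a membrane anchor subunit of succinate dehydrogenase, had 489.7 CPM in EpCAM- replicate 1, while the other 3 EpCAM- libraries had 589 to 606 CPM. The gap to the nearest library was 0.852 of the range of the group, above Dixon's 95% critical value for 4 libraries. It was the single such value among 36 groups of 4 libraries tested (the 9 enzymes and 9 other subunits in each fraction), and chance alone flags about 1 group in 20. Without EpCAM- replicate 1, *Sdhd* stayed lower in EpCAM+ libraries.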

How the results depend on the processing

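The 9 enzymes had log2 fold changes below 0 with edgeR and TMM and in every alternative, including each library left out, and none was called higher. The number called lower was 9 with DESeq2, with DESeq2's size factors and with the replicate block, 7 with limma-trend and with both other filters, 8 without immunoglobulin genes, 6 with library totals, 5 with upper-quartile scaling and 6 to 8 with 1 library left out. Over all genes tested the split of 2961 higher and 2818 lower became 3642 and 2083 with upper-quartile scaling and 3476 and 2066 with library totals, where the median log2 fold change of all genes was 0.11 for each. The split was 3005 and 3064 with DESeq2 and 3465 and 3353 with the replicate block. With the replicate block, *Idh3b*, *Ogdh*, *Sdha* and *Idh2* were called, the nuclear respiratory chain had 50 lower genes, pyruvate dehydrogenase and its regulators 2 higher, carriers 1 higher, cytosolic counterparts 1 higher and mitochondrial DNA messengers 1 lower. The higher carrier was *Slc25a11*, the only carrier with a log2 fold change above 0 in that fit. Among the single genes also refitted with 1 library left out, the block changed no call besides *Idh3b*, *Ogdh*, *Sdha* and *Idh2*. For the ratios, an exact sign-flip test over 4 pairs allows no p under 0.125 and a permutation of 3 libraries against 4 none under 0.0571, and no other paired test of the ratios was run.

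For pyruvate dehydrogenase and its regulators, 2 genes were higher with upper-quartile scaling and with library totals. Carriers had 1 higher gene with DESeq2, upper-quartile scaling, library totals and at least 10 counts in every library. The list labelled tissue-restricted paralogs holds 6 genes, among them *Csl*, *Ogdhl*, *Ldha* and *Ldhb*, and 3 of the 6 were tested. These paralogs had 2 lower genes with no filter. Proliferation had 9 lower with library totals, regulators 0 lower with upper-quartile scaling and library totals, and mitochondrial DNA messengers 1 lower with DESeq2 and 0 higher with no filter. With 1 library left out, the numbers higher ran from 0 to 2 for pyruvate dehydrogenase and from 0 to 1 for carriers, cytosolic counterparts and mitochondrial DNA messengers. The numbers lower ran from 1 to 2 for paralogs, 0 to 1 for mitochondrial DNA messengers, 23 to 39 for the respiratory chain and 0 to 6 for regulators (0 without EpCAM- replicate 3, 1 without EpCAM- replicate 4 and 2 without EpCAM+ replicate 2). Causes were not tested.

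In the deposited FPKM, whose implied gene lengths differ from the listed ones, EpCAM- and EpCAM+ means were 957 and 643 for *Mdh2*, 684 and 598 for *Idh3g*, 375 and 319 for *Suclg1*, 187 and 130 for *Fh1*, 155 and 99.0 for *Idh3a*, 154 and 144 for *Idh3b*, 110.2 and 74.9 for *Dlst*, 90.3 and 58.2 for *Cs* and 66.3 and 60.8 for *Ogdh*. The 9 enzymes had at least 1448 reads in each library.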

Other observations

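Set against the EpCAM- library of the same number, each of the 4 EpCAM+ libraries had lower log2 CPM of *Cs*, *Idh3a*, *Idh3b*, *Idh3g*, *Dlst*, *Suclg1*, *Fh1* and *Mdh2*. For *Ogdh* this held in 3 of 4 pairs, and the pair of number 2 differed by 0.04. *Cs* differed by -0.47, -0.53, -0.83 and -0.97 in pairs 1 to 4, while *Suclg1* differed by -0.30, -0.39, -0.31 and -0.26. With 4 pairs an exact sign-flip test cannot give a two-sided p under 0.125, so no p is given.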
